A study of Gallus gallus with 72 samples.

Results

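Breast muscle RNA of Cornish chickens at embryonic day 17 was compared with that of White Plymouth Rock chickens of the same age. There were 6 libraries of each breed, 12 of the 72 libraries of the series, chosen by their labels. The Cornish group and the White Plymouth Rock group hold male purebred embryos, labelled as broilers. The 6 crossbred libraries of that age entered the same model, and the 36 purebred libraries of days 1, 21 and 42 after hatch served for a comparison across stages. The crossbred libraries of those days entered the models of that comparison as well. No agent was given in any group and no allele is labelled. The source label speaks of myofibroblasts and the age label of embryonic years, whereas the protocol describes pieces of frozen breast muscle, so the libraries are read as whole tissue of embryonic day 17. The labels do not say that the libraries of a group came from separate birds, so the p-values cover the spread between libraries alone, and that spread may be technical.

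Cornish and White Plymouth Rock are the breeds from which most commercial meat chickens descend: Cornish is the classical sire breed, selected for breast yield, and White Plymouth Rock the dam breed. Late in embryonic life the breast muscle is completing its fibres. Myoblasts fuse into secondary fibres alongside the primary ones, motor axons and capillaries grow in, and connective tissue forms sheaths around the bundles. Whole muscle RNA therefore carries transcripts of muscle fibres together with those of nerve, vessel, connective tissue and blood cells. In such bulk samples fewer cells of a type and less RNA per cell cannot be told apart.

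The libraries held 55174131 to 60236727 counts, and levels are given as scaled counts per 1e6 counts of the library (CPM). Muscle transcripts were abundant, as the tissue label has it: the 13 muscle fibre markers summed to 30601 to 39079 CPM in Cornish and 31251 to 48063 CPM in White Plymouth Rock libraries. White Plymouth Rock library 5 stood apart. Its mean correlation with the other libraries of its group was 0.9756, against 0.9813 to 0.9822 for the other 5 and 0.9825 to 0.9852 among Cornish libraries. Its 26 skin epithelium markers summed to 1280.2 CPM and those of White Plymouth Rock library 1 to 858 CPM, whereas the other 10 libraries had 443 to 701 CPM. The results were therefore also computed without library 5 and without both.

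Of 11717 genes tested, 436 differed between the breeds at embryonic day 17 (3.72%; edgeR, adjusted p under 0.05), with 193 higher in Cornish (1.65%) and 243 lower (2.07%). The differences were mostly small: the median size among them was 0.427 on the log2 scale, and 55 reached 2-fold, 16 higher and 39 lower in Cornish. The 6 libraries of each breed did not overlap for 240 of the 436, a separation found in 3.09% of all genes tested. The median log2 fold change over all genes was -0.0045. Leaving out 1 of the 12 purebred libraries at a time, 173 genes stayed past the threshold in all 12 fits, 80 higher and 93 lower. A fit of all 72 libraries shares 1 estimate of the spread over the stages. It called 46 genes (0.386%), 40 of them among the 436, and 83 of the 101 called genes taken by the naming rule lost their call in it. DESeq2 called 868 genes (7.41%). The genes described below belong to the 173 unless the loss of their call is given. Fold changes are Cornish over White Plymouth Rock on the log2 scale, as the estimate ± standard error. The level of a gene is given as the lowest, the median and the highest of the 6 libraries, and a value after log2 is a log2 fold change.

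Neural surface and synaptic genes held several of the largest differences, in both directions. Of 108 genes for synaptic and axonal surface proteins tested, 6 were higher in Cornish and 1 was lower, 6.48% against 3.72% of all genes. The median of the list was 0.0649. This list, like the others, was chosen with earlier results of these data known, so its share is a description and no test. LRRN1, a leucine-rich repeat membrane protein of neurons, was at 39.9, 54.9 and 86.9 CPM in Cornish against 12.2, 19.9 and 26.2 CPM in White Plymouth Rock. The groups of LRRN1 did not overlap, and its log2 fold change was 1.52 ± 0.24 (adjusted p = 0.00281). TENM3, a teneurin that guides the matching of synaptic partners, stood at 97.5, 102 and 109.9 CPM in Cornish against 59.1, 72 and 84.6 CPM in White Plymouth Rock. TENM3 had a log2 fold change of 0.52 ± 0.09 (adjusted p = 0.00605), without overlap of the groups. CNTN4, an axonal adhesion molecule of the contactin family, was at 14, 15 and 20.3 CPM in Cornish against 6.86, 9.92 and 11.7 CPM in White Plymouth Rock. For CNTN4 the log2 fold change was 0.78 ± 0.16 (adjusted p = 0.0136), and no libraries of the breeds overlapped. SHANK2, a postsynaptic scaffold, was at 6.42, 10.9 and 16.7 CPM in Cornish against 0.334, 2.59 and 3.52 CPM in White Plymouth Rock. SHANK2 rose by 2.38 ± 0.50 on the log2 scale (adjusted p = 0.0165), and the groups did not overlap, with 2 of the 6 White Plymouth Rock libraries at 0.334 and 0.433 CPM. SEMA4C, a membrane semaphorin, had a log2 fold change of 0.19 ± 0.04, with its call lost without Cornish library 6 or White Plymouth Rock library 3 or 5, and LINGO3, a LINGO family membrane protein, one of 0.88 ± 0.22, with its call lost in 6 of the 12 fits. The single member lower in Cornish was CBLN1, a secreted organiser of synapses, at 2.2, 3.04 and 8.0 CPM in Cornish against 38.9, 65.1 and 108 CPM in White Plymouth Rock. The groups of CBLN1 did not overlap, and its log2 fold change was -4.05 ± 0.75 (adjusted p = 0.00903). Its lowest White Plymouth Rock library was nearly 5 times its highest Cornish library.

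Other neural genes outside that list, some chosen after their values were seen, followed no single direction. DPP10, an inactive peptidase that serves as an auxiliary subunit of Kv4 potassium channels, was at 44.6, 76.2 and 83.3 CPM in Cornish against 24.4, 36.2 and 41.9 CPM in White Plymouth Rock. DPP10 had a log2 fold change of 1.01 ± 0.20 (adjusted p = 0.0126), without overlap of the groups. KCND2, a pore-forming Kv4 subunit, was lower, at 1.33, 1.92 and 4.07 CPM in Cornish against 2.8, 5.09 and 9.28 CPM in White Plymouth Rock. For KCND2 the log2 fold change was -1.32 ± 0.35 (adjusted p = 0.042), and some libraries of the breeds overlapped; its call was lost in 8 of the 12 fits. SHTN1, which couples adhesion to actin in growing axons, was at 10.3, 15.7 and 22.5 CPM in Cornish against 6.04, 7.91 and 9.49 CPM in White Plymouth Rock. SHTN1 rose by 1.05 ± 0.22 on the log2 scale (adjusted p = 0.0165), and the groups did not overlap. IL1RAPL2, a receptor-like protein of the interleukin-1 receptor family, stood at 6.35, 10.4 and 13.9 CPM in Cornish against 3.19, 4.13 and 6.58 CPM in White Plymouth Rock. The groups of IL1RAPL2 overlapped, and its log2 fold change was 1.29 ± 0.25 (adjusted p = 0.0106). GRM4, a metabotropic glutamate receptor, was at 0.716, 1.15 and 2.81 CPM in Cornish against 3.05, 4.08 and 6.39 CPM in White Plymouth Rock. GRM4 had a log2 fold change of -1.74 ± 0.36 (adjusted p = 0.0165), without overlap of the groups. HOMER1, whose product links glutamate receptors and Shank scaffolds, was also lower, at 22.2, 26.6 and 29.2 CPM in Cornish against 33.1, 41.1 and 45.8 CPM in White Plymouth Rock. For HOMER1 the log2 fold change was -0.66 ± 0.13 (adjusted p = 0.0108), and no libraries of the breeds overlapped. RET, the receptor of glial-derived growth factors, had a log2 fold change of -1.20 ± 0.29 with its call lost in 7 of the 12 fits. PCDH10, a protocadherin, had one of -1.99 ± 0.50 with its call lost in 7 of the 12 fits. Of 25 markers of Schwann cells and nerve 0 passed the threshold, and their median was -0.187. Their summed level was 817 to 1303 CPM in Cornish and 1007 to 1108 CPM in White Plymouth Rock libraries, and their part in these differences was not tested.

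**Figure D1:**
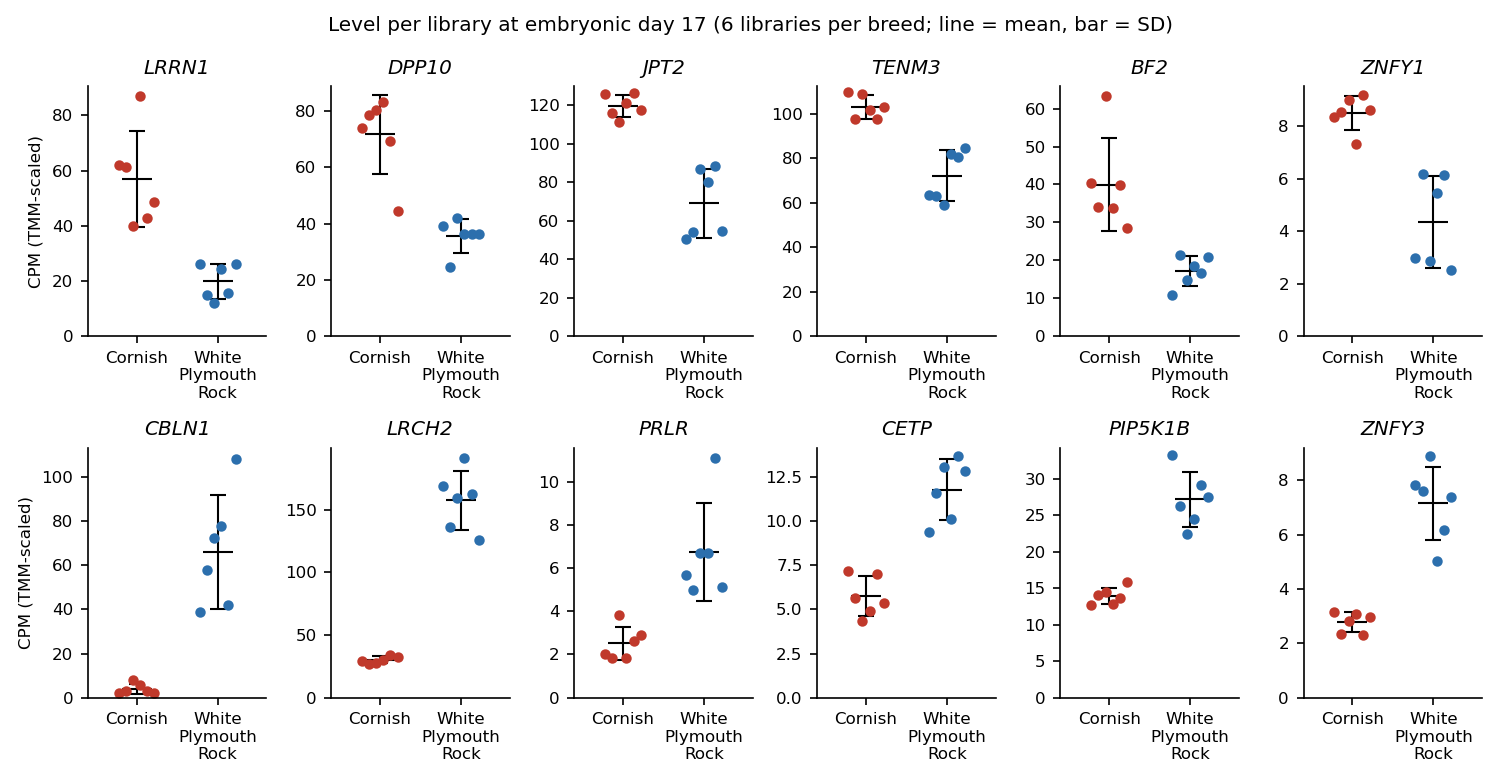
Level of 12 genes in each library (vertical axis, CPM), with 6 Cornish libraries in red on the left and 6 White Plymouth Rock libraries in blue on the right, the mean as a line and the SD as a bar. The top row has genes higher in Cornish and the bottom row genes lower in Cornish. No gene drawn has overlapping groups, and for CBLN1 and LRCH2 the Cornish libraries lie close to the axis, at 2.2 to 8.0 CPM and 26.7 to 34.1 CPM.

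LRCH2, a protein with leucine-rich repeats and a calponin homology domain (chromosome 4, 2814407 to 2854691 on GRCg7b), had the smallest p of all genes tested. LRCH2 stood at 26.7, 29.9 and 34.1 CPM in Cornish against 126, 161 and 191 CPM in White Plymouth Rock. LRCH2 fell by 2.39 ± 0.20 on the log2 scale (adjusted p = 4.09e-06), and the groups did not overlap. The lowest White Plymouth Rock library was above 3 times the highest Cornish library. The neighbouring gene IL13RA2, a decoy receptor of interleukin-13 whose annotated end lies 8131 bases away, was lower as well, at 2.98, 4.45 and 5.6 CPM in Cornish against 6.48, 8.81 and 13.4 CPM in White Plymouth Rock. The groups of IL13RA2 did not overlap, and its log2 fold change was -1.07 ± 0.24 (adjusted p = 0.0221). Of 10631 pairs of adjacent tested genes less than 200 kb apart, 28 pairs (0.263%) had both genes past the threshold, 18 in the same direction and 10 in opposite directions. The share that unrelated calls would give was not computed. Among those with the same direction were CETP and NLRC5 on chromosome 11 and PIP5K1B and RFKL on the Z chromosome. Among those with opposite directions were IL6R and SHE on chromosome 25, and LYN and RPS20 on chromosome 2. CETP, the plasma protein that exchanges cholesteryl esters between lipoproteins (chromosome 11, 604343 to 609993), was at 4.33, 5.52 and 7.19 CPM in Cornish against 9.39, 12.2 and 13.7 CPM in White Plymouth Rock. CETP had a log2 fold change of -1.04 ± 0.16 (adjusted p = 0.0025), without overlap of the groups. NLRC5, which in mammals activates transcription of MHC class I genes and whose start lies 647 bases beyond CETP, was at 10.9, 12.8 and 14.7 CPM in Cornish against 15.3, 18.3 and 19.9 CPM in White Plymouth Rock. For NLRC5 the log2 fold change was -0.51 ± 0.11 (adjusted p = 0.0165), and no libraries of the breeds overlapped. PIP5K1B, a kinase that makes phosphatidylinositol bisphosphate, was at 12.7, 13.8 and 15.8 CPM in Cornish against 22.5, 26.9 and 33.3 CPM in White Plymouth Rock. PIP5K1B fell by 0.97 ± 0.12 on the log2 scale (adjusted p = 0.00049), and the groups did not overlap. RFKL, 34210 bases away, was at 8.9, 10.4 and 11.4 CPM in Cornish against 14.1, 17.6 and 22.5 CPM in White Plymouth Rock. The groups of RFKL did not overlap, and its log2 fold change was -0.81 ± 0.13 (adjusted p = 0.00364).

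PRLR and SPEF2, neighbours on the Z chromosome whose annotations overlap, are known in chickens for the late feathering locus, where both are partly duplicated. PRLR, the prolactin receptor (chromosome Z, 11159196 to 11350251), was at 1.83, 2.32 and 3.82 CPM in Cornish against 5.01, 6.21 and 11.1 CPM in White Plymouth Rock. PRLR had a log2 fold change of -1.42 ± 0.21 (adjusted p = 0.00186), without overlap of the groups. Its highest value was in White Plymouth Rock library 5, and without it the log2 fold change was -1.22 (adjusted p = 0.00308). SPEF2, a sperm flagellum protein, was at 0.128, 0.501 and 0.997 CPM in Cornish against 1.07, 1.29 and 6.21 CPM in White Plymouth Rock. For SPEF2 the log2 fold change was -2.01 ± 0.49 (adjusted p = 0.0276), and no libraries of the breeds overlapped; its call was lost without Cornish library 1, 4, 5 or 6 or White Plymouth Rock library 5. Without White Plymouth Rock library 5, which held 6.21 CPM, its log2 fold change was -1.26 (adjusted p = 0.0633). The strand setting of the counting is not given in the sources used here, so reads in the overlap cannot be assigned between the 2 genes. CRISPLD2, a secreted protein of the lung and connective tissue in mammals, was at 1.77, 2.62 and 4.57 CPM in Cornish against 7.25, 8.49 and 15.4 CPM in White Plymouth Rock. CRISPLD2 fell by 1.77 ± 0.31 on the log2 scale (adjusted p = 0.00626), and the groups did not overlap. Its highest library was again White Plymouth Rock library 5, and without it the log2 fold change was -1.57. Its neighbour HNF4beta, a nuclear receptor, had a log2 fold change of -1.91 ± 0.48, with levels under 2 CPM in every library and a call lost in 8 of the 12 fits. On chromosome 14, JPT2, which binds the calcium messenger NAADP, was at 111, 119 and 126 CPM in Cornish against 50.2, 67.4 and 88.5 CPM in White Plymouth Rock. The groups of JPT2 did not overlap, and its log2 fold change was 0.79 ± 0.14 (adjusted p = 0.00664). WFIKKN1, a secreted protein that binds myostatin and GDF11, was at 129.8, 194 and 223 CPM in Cornish against 62.2, 116 and 158 CPM in White Plymouth Rock. WFIKKN1 had a log2 fold change of 0.73 ± 0.18 (adjusted p = 0.0292), with overlap of the groups, and its call was lost without Cornish library 1, 3, 4 or 6 or White Plymouth Rock library 2. The genes of this paragraph other than CRISPLD2 and JPT2 were chosen after their values were seen.

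Genes of the chicken major histocompatibility complex differed by breed. On chromosome 16, the microchromosome that carries this complex, 7 of 43 tested genes passed the threshold (16.3%), against 3.72% of all genes. BF2, the major class I heavy chain (chromosome 16, 2226703 to 2229465), was at 28.6, 36.9 and 63.3 CPM in Cornish against 10.7, 17.5 and 21.4 CPM in White Plymouth Rock. For BF2 the log2 fold change was 1.22 ± 0.20 (adjusted p = 0.00364), and no libraries of the breeds overlapped. BF1, the minor class I heavy chain, was at 14.1, 20.1 and 27.4 CPM in Cornish against 7.83, 11.6 and 14 CPM in White Plymouth Rock. BF1 rose by 0.86 ± 0.20 on the log2 scale (adjusted p = 0.024), and the groups did not overlap; its call was lost without Cornish library 4. CD1C, a gene for a lipid-presenting molecule, had 7 to 22 counts in Cornish libraries, 0 in every White Plymouth Rock library and 8 to 23 in crossbred libraries. Set against a floor of 3 counts per library, its Cornish mean of 14.3 counts was at least 4.78-fold higher. Its adjusted p was 0.000746 (edgeR), and the fitted fold change is no bound because of the zeros. ZNFY1 and ZNFY3, zinc finger genes of the Y region of the complex, moved in opposite directions. ZNFY1 was at 7.34, 8.59 and 9.2 CPM in Cornish against 2.51, 4.21 and 6.19 CPM in White Plymouth Rock. The groups of ZNFY1 did not overlap, and its log2 fold change was 0.97 ± 0.20 (adjusted p = 0.0142). ZNFY3 was at 2.3, 2.9 and 3.14 CPM in Cornish against 5.02, 7.5 and 8.88 CPM in White Plymouth Rock. ZNFY3 had a log2 fold change of -1.36 ± 0.16 (adjusted p = 0.000403), without overlap of the groups. TAPBP, the tapasin that loads peptides onto class I, was lower, at 6.32, 8.1 and 9.46 CPM in Cornish against 9.51, 12.1 and 15 CPM in White Plymouth Rock. For TAPBP the log2 fold change was -0.57 ± 0.14 (adjusted p = 0.031), and no libraries of the breeds overlapped; its call was lost in 7 of the 12 fits. CYP21A1, a steroid hydroxylase of the same region, was higher at log2 0.74 ± 0.20, and its call was lost in 9 of the 12 fits. BF1 and BF2, and the ZNFY genes, are close copies whose alleles can differ between breeds. How reads were divided among them, and how well each breed's alleles match the reference genome, was not tested.

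Across the list of 24 antigen presentation genes 3 were higher in Cornish (BF1, BF2 and CD1C) and 2 lower (TAPBP and NLRC5). That was 20.8% in all, against 3.72% of all genes, with a median of 0.0478. Without White Plymouth Rock libraries 1 and 5, BF2, CD1C and NLRC5 passed. BF1 (adjusted p = 0.0835, edgeR) and TAPBP (adjusted p = 0.0725, edgeR) did not. The peptide transporters TAP1, at log2 0.18 ± 0.24, and TAP2, at log2 0.15 ± 0.14, did not pass. Nor did the class II chain BLB2, at log2 -0.16 ± 0.29, or the class I light chain B2M, at log2 -0.42 ± 0.12 with an adjusted p of 0.0544. MHCY15, a class I-like gene of the Y region, varied between libraries of 1 breed, at 0.121 to 29.2 CPM in Cornish and 0.366 to 2.19 CPM in White Plymouth Rock libraries (adjusted p = 0.0754). Of 36 interferon response genes 0 passed the threshold, and their median was -0.0098. TMEM173, the cytosolic DNA sensor adaptor STING, was lower, at 1.57, 4.15 and 6.42 CPM in Cornish against 5.83, 10.8 and 13 CPM in White Plymouth Rock. TMEM173 fell by 1.31 ± 0.27 on the log2 scale (adjusted p = 0.0158), and the groups overlapped. Among 78 cytokines, chemokines and receptors, 1 was higher (IL1RAPL2) and 3 lower (IL13RA2, IL6R and TNFRSF11B), 5.13% against 3.72% of all genes. IL6R, the interleukin-6 receptor, was at 13.3, 17.5 and 21.2 CPM in Cornish against 22.8, 27.7 and 34.1 CPM in White Plymouth Rock. The groups of IL6R did not overlap, and its log2 fold change was -0.73 ± 0.13 (adjusted p = 0.00626). TNFRSF11B, the decoy receptor osteoprotegerin, was at 6.73, 7.66 and 8.22 CPM in Cornish against 10.2, 12.3 and 13.4 CPM in White Plymouth Rock. TNFRSF11B had a log2 fold change of -0.67 ± 0.13 (adjusted p = 0.0108), without overlap of the groups. TRAF5, a signal transducer of tumour necrosis factor receptors, was also lower, at log2 -0.71 ± 0.13, whereas LYN, a Src family kinase, was higher at log2 0.53 ± 0.11 and P2RY8, a G protein-coupled receptor of lymphocytes, at log2 0.67 ± 0.16. Of 39 leukocyte markers 1 was higher, ITGB3 at log2 0.54 ± 0.13 (its call lost in 7 of the 12 fits), and the list summed to 508 to 653 CPM in Cornish and 496 to 657 CPM in White Plymouth Rock libraries.

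The list with the most members past the threshold was that of cytosolic ribosomal proteins, the structural proteins of the translating ribosome. Of 66 such genes 34 passed the threshold, all lower in Cornish (51.5%, against 3.72% of all genes). The median of the list was -0.323. RPS3A, a protein of the small subunit, was at 1472, 1789.8 and 2066 CPM in Cornish against 2277, 2669 and 2900.4 CPM in White Plymouth Rock. For RPS3A the log2 fold change was -0.60 ± 0.10 (adjusted p = 0.00581), and no libraries of the breeds overlapped. RPL15 of the large subunit was at 753, 835 and 892 CPM in Cornish against 1004, 1134 and 1291 CPM in White Plymouth Rock. RPL15 fell by 0.46 ± 0.09 on the log2 scale (adjusted p = 0.00967), and the groups did not overlap. RPL38 was at 26.2, 30.1 and 33.3 CPM in Cornish against 36.6, 39.5 and 44.8 CPM in White Plymouth Rock. The groups of RPL38 did not overlap, and its log2 fold change was -0.42 ± 0.07 (adjusted p = 0.00626). RPS2 was at 1268, 1427 and 1786 CPM in Cornish against 1773, 2036 and 2116 CPM in White Plymouth Rock. RPS2 had a log2 fold change of -0.45 ± 0.08 (adjusted p = 0.00967), with overlap of the groups. TPT1, an abundant growth-related protein whose messenger shares the translational control of ribosomal protein messengers in mammals, was at 2307, 2524 and 2873 CPM in Cornish against 2905, 3544 and 3969 CPM in White Plymouth Rock. For TPT1 the log2 fold change was -0.48 ± 0.09 (adjusted p = 0.0108), and no libraries of the breeds overlapped. The 66 ribosomal genes summed to 34007 to 41500.4 CPM in Cornish and 39472 to 51023 CPM in White Plymouth Rock libraries, with library 5 the highest of all. Without White Plymouth Rock library 5 the count was 12 and the median -0.288; without libraries 1 and 5 it was 23, with a median of -0.315. Over the 12 fits with 1 library left out it ran from 11 to 42, and in the fit of all 72 libraries it was 0. How reads were divided between similar copies of these genes was not tested.

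Elsewhere in the translation machinery, and in RNA processing and chromatin, 0 to 2.13% of the members of a list passed the threshold, against 3.72% of all genes. Of 67 mitochondrial ribosomal protein genes 1 was higher, MRPL13 at log2 0.28 ± 0.07, and its call was lost in 7 of the 12 fits, and the median was 0.0118. Of 59 translation factors 1 was lower, EEF1E1, a scaffold of the synthetase complex, at 19.3, 23.4 and 26.6 CPM in Cornish against 30.6, 32.2 and 37.9 CPM in White Plymouth Rock. EEF1E1 fell by 0.51 ± 0.11 on the log2 scale (adjusted p = 0.0158), and the groups did not overlap. None of 19 aminoacyl-tRNA synthetase genes and none of 27 ribosome biogenesis genes passed, with medians of 0.0020 and -0.0383. Of 94 splicing and messenger processing genes 1 was higher, CPSF1 at log2 0.26 ± 0.07 (its call lost in 11 of the 12 fits), and 1 lower, RBM43 at log2 -0.43 ± 0.09. Of 68 genes of histones and chromatin remodelling 1 was lower, KDM3A at log2 -0.17 ± 0.05 (its call lost in 10 of the 12 fits).

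**Figure D2:**
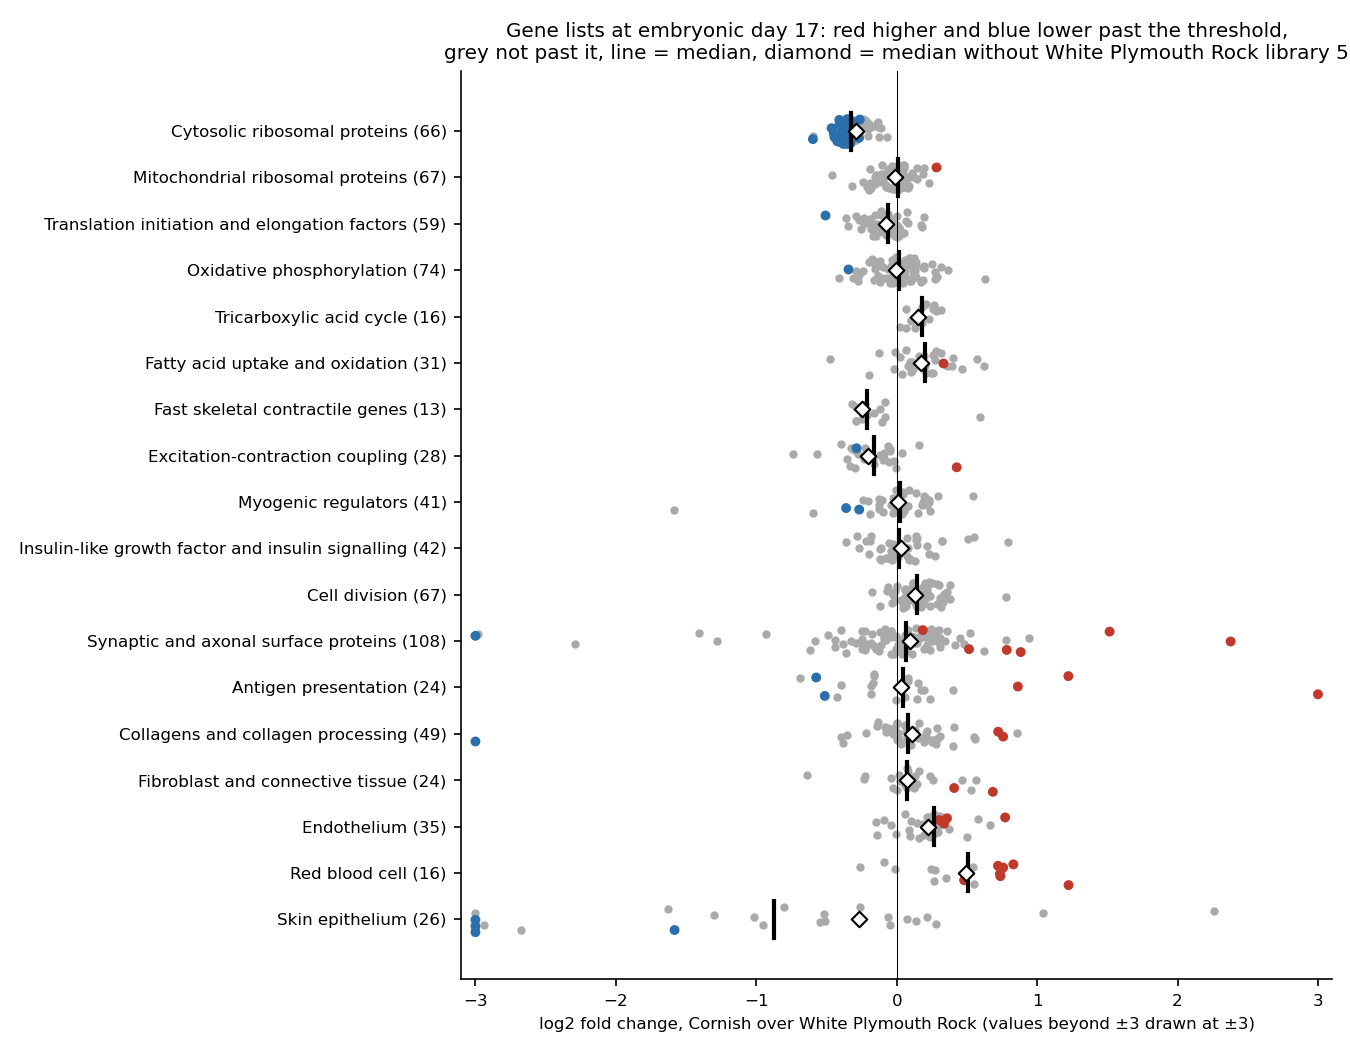
Log2 fold change, Cornish over White Plymouth Rock, of every tested member of 18 gene lists (horizontal axis; number of members in brackets; 1 point per gene). The cytosolic ribosomal genes lie to the left of 0 without exception, red blood cell and endothelial genes mostly to the right, and the median of the skin epithelium list moves from -0.877 to -0.269 when White Plymouth Rock library 5 is left out.

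The contractile and sarcomere scaffold lists had 0 to 3.7% of their members past the threshold, against 3.72% of all genes. The lists of excitation-contraction coupling and of the dystrophin complex and costamere had 7.14% and 7.41%, at 2 members each. Of 13 fast skeletal contractile genes, of 21 slow, cardiac and embryonic ones and of 22 genes of the neuromuscular junction, 0 passed the threshold, with medians of -0.210, 0.107 and -0.103. TTN, the giant sarcomere spring, was at 3969, 5057 and 5786 CPM in Cornish against 3718, 4565 and 6406 CPM in White Plymouth Rock. TNNT3, fast troponin T, was at 2492, 2984 and 3725 CPM in Cornish against 2878, 3761 and 4731 CPM in White Plymouth Rock. Both had overlapping groups. TMOD4, the muscle tropomodulin that caps thin filaments, was the 1 of 27 sarcomere scaffold genes to differ, at 24.3, 36.1 and 52.2 CPM in Cornish against 44.7, 75.6 and 119.5 CPM in White Plymouth Rock. The groups of TMOD4 overlapped, and its log2 fold change was -1.08 ± 0.29 (adjusted p = 0.0463), and its call was lost in 8 of the 12 fits. TMOD3, the widely expressed tropomodulin, was higher, at 146, 150.4 and 158 CPM in Cornish against 98.5, 128 and 135 CPM in White Plymouth Rock. TMOD3 had a log2 fold change of 0.30 ± 0.07 (adjusted p = 0.0191), without overlap of the groups. DHRS7C, an enzyme of the sarcoplasmic reticulum of muscle, was at 24.7, 37.1 and 50.1 CPM in Cornish against 50.4, 72.3 and 88.1 CPM in White Plymouth Rock. For DHRS7C the log2 fold change was -0.97 ± 0.22 (adjusted p = 0.0201), and no libraries of the breeds overlapped. Among 28 genes of excitation-contraction coupling 25 had estimates below 0, with a median of -0.165, and 2 passed. They were ATP1B1, a sodium pump subunit, at log2 0.43 ± 0.11 (its call lost in 7 of the 12 fits), and STIM1, the calcium store sensor, at log2 -0.29 ± 0.08 (its call lost in 9 of the 12 fits). Of 27 genes of the dystrophin complex and costamere 2 were higher, LIMS1 and PARVB, which both encode partners of integrin-linked kinase. LIMS1 was at 52.3, 60.4 and 81.3 CPM in Cornish against 36.3, 41.7 and 54.2 CPM in White Plymouth Rock. LIMS1 rose by 0.59 ± 0.12 on the log2 scale (adjusted p = 0.0165), and the groups overlapped. PARVB was at 566, 668 and 734 CPM in Cornish against 396, 453 and 649 CPM in White Plymouth Rock. The groups of PARVB overlapped, and its log2 fold change was 0.43 ± 0.12 (adjusted p = 0.049), and its call was lost in 9 of the 12 fits. ITGAV, an integrin subunit, was likewise higher, at 244, 248 and 255 CPM in Cornish against 154, 194 and 222 CPM in White Plymouth Rock. ITGAV had a log2 fold change of 0.38 ± 0.07 (adjusted p = 0.00859), without overlap of the groups.

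Of 41 myogenic regulators 0 were higher and 2 lower (4.88%, against 3.72% of all genes). EYA1, a transcriptional cofactor of muscle precursors, was at 219, 236 and 275 CPM in Cornish against 251, 308 and 359 CPM in White Plymouth Rock. For EYA1 the log2 fold change was -0.36 ± 0.09 (adjusted p = 0.0265), and some libraries of the breeds overlapped; its call was lost in 6 of the 12 fits. LBX1, a homeobox factor of migrating precursors, was at 51.5, 57.6 and 62.4 CPM in Cornish against 62.8, 68.4 and 76.4 CPM in White Plymouth Rock. LBX1 fell by 0.27 ± 0.06 on the log2 scale (adjusted p = 0.0276), and the groups did not overlap; its call was lost without Cornish library 1, 2 or 6 or White Plymouth Rock library 3 or 6. The satellite cell factor PAX7 was at 61, 73.1 and 80.2 CPM in Cornish against 69.3, 81.1 and 101 CPM in White Plymouth Rock (adjusted p = 0.217). MYOD1, the determination factor, was at 135, 157 and 185 CPM in Cornish against 146, 172 and 190.1 CPM in White Plymouth Rock (adjusted p = 0.546). MYOG, the differentiation factor myogenin, was at 37.9, 49.6 and 66.8 CPM in Cornish against 24.6, 39.5 and 60.3 CPM in White Plymouth Rock (adjusted p = 0.507). All 3 overlapped between the breeds. MSTN, the growth inhibitor myostatin, was at 94.8, 163 and 213 CPM in Cornish against 86, 199.6 and 269 CPM in White Plymouth Rock (log2 fold change -0.19 ± 0.26, adjusted p = 0.734), a wide range in both breeds. The growth factor IGF1 was at 5.02, 5.92 and 8.37 CPM in Cornish against 5.24, 6.29 and 6.98 CPM in White Plymouth Rock (adjusted p = 0.93). Its fetal relative IGF2 was at 12.7, 18.3 and 21.1 CPM in Cornish against 12.1, 14.4 and 17 CPM in White Plymouth Rock (adjusted p = 0.217). None of 42 genes of insulin-like growth factor and insulin signalling passed the threshold. Cell division genes leaned upward without any passing: 0 of 67, with 58 estimates above 0 and a median of 0.144. TOP2A, the topoisomerase of dividing cells, was at log2 0.38 ± 0.14 (adjusted p = 0.132). In the simulated data 56% of genes given a log2 fold change of 0.5 and 85% of those given 1 were called. Smaller changes were not simulated.

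The lists of signalling and regulatory genes given next had 0 to 4.55% of their members past the threshold, against 3.72% of all genes. In the WNT, hedgehog, FGF and Notch list of 87, GLI2, a transcription factor of hedgehog signalling, was higher at 56.6, 57.7 and 59.4 CPM in Cornish against 38.1, 44.7 and 50.8 CPM in White Plymouth Rock. The groups of GLI2 did not overlap, and its log2 fold change was 0.37 ± 0.07 (adjusted p = 0.00769). RFNG, a glycosyltransferase that modifies Notch, was lower at log2 -0.20 ± 0.05, and its call was lost in 11 of the 12 fits. In the list of 45 genes of TGF-beta, activin and BMP signalling only BMPR1B, a BMP receptor, passed, at log2 -0.44 ± 0.12, and its call was lost in 10 of the 12 fits. CHRDL2, a secreted BMP antagonist outside the list, was lower, at 2.09, 2.48 and 2.99 CPM in Cornish against 3.8, 4.41 and 5.66 CPM in White Plymouth Rock. CHRDL2 had a log2 fold change of -0.91 ± 0.19 (adjusted p = 0.0165), without overlap of the groups. TSPAN12, a coreceptor in norrin and WNT signalling, was at 47.4, 57.2 and 64.2 CPM in Cornish against 72.8, 86.1 and 88.5 CPM in White Plymouth Rock. For TSPAN12 the log2 fold change was -0.57 ± 0.12 (adjusted p = 0.0186), and no libraries of the breeds overlapped. ADRA2A, an adrenergic receptor, was higher at 8.43, 8.65 and 11.9 CPM in Cornish against 5.01, 5.39 and 5.98 CPM in White Plymouth Rock. ADRA2A rose by 0.79 ± 0.20 on the log2 scale (adjusted p = 0.0377), and the groups did not overlap; its call was lost in 11 of the 12 fits. ADCY6, an adenylyl cyclase, was at 41, 45.7 and 53.5 CPM in Cornish against 30.3, 35.9 and 40.6 CPM in White Plymouth Rock. The groups of ADCY6 did not overlap, and its log2 fold change was 0.39 ± 0.09 (adjusted p = 0.0199). Of 51 nuclear receptors ESRRG was higher at log2 0.38 ± 0.10 (its call lost in 9 of the 12 fits) and NR0B1 lower at log2 -1.33 ± 0.31 (its call lost without Cornish library 1, 4 or 6). HOXA4 was the 1 of 65 HOX and positional factors that differed, at log2 -0.52 ± 0.12 (its call lost without Cornish library 1 or 6 or White Plymouth Rock library 4 or 5). Of 83 trafficking GTPases 1 was lower, RHOC at log2 -0.67 ± 0.14. RAP1GAP, which switches off the GTPase RAP1, was at 4.88, 5.77 and 6.84 CPM in Cornish against 8.04, 10.7 and 11.8 CPM in White Plymouth Rock. RAP1GAP had a log2 fold change of -0.85 ± 0.14 (adjusted p = 0.00398), without overlap of the groups. Of 22 circadian clock genes, 18 hypoxia genes, 33 genes of apoptosis and p53 targets and 26 basement membrane genes 0 passed. Of 22 immediate early genes 1 was lower, EGR1 at log2 -0.46 ± 0.13 (its call lost in 11 of the 12 fits).

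In a list of 42 genes of amino acid breakdown, drawn up after the values were seen, 5 were higher in Cornish and 2 lower (16.7%, against 3.72% of all genes). Since the list was chosen with the values in view, nothing is read from that share. AASS, the first enzyme of lysine degradation, was at 62.5, 90.7 and 105 CPM in Cornish against 49.3, 57.1 and 67 CPM in White Plymouth Rock. For AASS the log2 fold change was 0.58 ± 0.11 (adjusted p = 0.0108), and some libraries of the breeds overlapped. ALDH4A1, of proline degradation, was at 47.1, 52.4 and 58.4 CPM in Cornish against 33.9, 39.9 and 42.1 CPM in White Plymouth Rock. ALDH4A1 rose by 0.44 ± 0.07 on the log2 scale (adjusted p = 0.00364), and the groups did not overlap. ALDH5A1, which oxidises succinate semialdehyde, was at 36.5, 43.6 and 47.9 CPM in Cornish against 24.7, 30.7 and 36.4 CPM in White Plymouth Rock. The groups of ALDH5A1 did not overlap, and its log2 fold change was 0.50 ± 0.10 (adjusted p = 0.0119). BCAT1, which starts the breakdown of branched-chain amino acids, was at log2 0.36 ± 0.09, and its call was lost without Cornish library 1 or 6 or White Plymouth Rock library 2 or 6. AUH, of leucine degradation, was at log2 0.37 ± 0.10, and its call was lost in 8 of the 12 fits. RIDA, which clears reactive imines, was lower at 5.71, 6.55 and 7.61 CPM in Cornish against 9.33, 11.5 and 13.5 CPM in White Plymouth Rock. RIDA had a log2 fold change of -0.81 ± 0.13 (adjusted p = 0.00295), without overlap of the groups. AHCY, which splits S-adenosylhomocysteine, was at log2 -0.50 ± 0.12, and its call was lost in 7 of the 12 fits. Without White Plymouth Rock library 5 the counts were 4 higher and 1 lower.

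The lists of energy metabolism genes had 0 to 3.92% of their members past the threshold, against 3.72% of all genes. Of 74 genes of oxidative phosphorylation 1 was lower, NDUFA6 at log2 -0.35 ± 0.09 (its call lost in 8 of the 12 fits), and the median was 0.0165. Outside the list, SCO2, an assembly factor of cytochrome oxidase, was higher at 46.3, 53.6 and 59.5 CPM in Cornish against 31.9, 34.6 and 36.8 CPM in White Plymouth Rock. For SCO2 the log2 fold change was 0.62 ± 0.08 (adjusted p = 0.000767), and no libraries of the breeds overlapped. CHCHD10, a protein of mitochondrial cristae, was at 14.6, 15.9 and 20.7 CPM in Cornish against 19.7, 27.5 and 37.7 CPM in White Plymouth Rock. CHCHD10 fell by 0.75 ± 0.16 on the log2 scale (adjusted p = 0.0159), and the groups overlapped. COQ3, an enzyme of ubiquinone synthesis, was at 18.5, 19 and 21 CPM in Cornish against 22.2, 24.8 and 26.8 CPM in White Plymouth Rock. The groups of COQ3 did not overlap, and its log2 fold change was -0.34 ± 0.07 (adjusted p = 0.0177). All 16 genes of the tricarboxylic acid cycle had estimates above 0, with a median of 0.183, and 0 passed. Of 31 fatty acid oxidation and uptake genes 26 had estimates above 0, the median was 0.200, and 1 passed, CPT2 of the carnitine shuttle at log2 0.33 ± 0.09 (its call lost in 10 of the 12 fits). Of 27 glycolysis and glycogen genes 1 was higher, ALDOC at 409.6, 545 and 679.8 CPM in Cornish against 294, 410.3 and 439.9 CPM in White Plymouth Rock. ALDOC had a log2 fold change of 0.50 ± 0.13 (adjusted p = 0.0435), with overlap of the groups, and its call was lost in 10 of the 12 fits. Of 30 genes of sterol and fatty acid synthesis 0 passed. Among 51 mitochondrial carrier and import genes 2 were higher. SLC25A26, the carrier of S-adenosylmethionine, was at 10.4, 13.1 and 14.9 CPM in Cornish against 8.69, 9.21 and 9.66 CPM in White Plymouth Rock. For SLC25A26 the log2 fold change was 0.47 ± 0.09 (adjusted p = 0.0112), and no libraries of the breeds overlapped. SLC25A5, an ADP/ATP carrier, was at 54, 60.0 and 60.9 CPM in Cornish against 44.7, 49.6 and 51.5 CPM in White Plymouth Rock. SLC25A5 rose by 0.28 ± 0.06 on the log2 scale (adjusted p = 0.0179), and the groups did not overlap.

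Of 196 other solute carriers 1 was higher, the red cell anion exchanger SLC4A1, and 3 were lower (2.04%, against 3.72% of all genes). SLC37A4, which carries glucose 6-phosphate into the endoplasmic reticulum, was at 368, 385 and 441 CPM in Cornish against 453, 565 and 596 CPM in White Plymouth Rock. The groups of SLC37A4 did not overlap, and its log2 fold change was -0.47 ± 0.08 (adjusted p = 0.00414). SLC29A4, a monoamine transporter, was at 2.88, 3.49 and 4.48 CPM in Cornish against 5.48, 8.09 and 9.81 CPM in White Plymouth Rock. SLC29A4 had a log2 fold change of -1.12 ± 0.19 (adjusted p = 0.00581), without overlap of the groups. SLC45A1, a sugar transporter, was at log2 -0.22 ± 0.06, and its call was lost in 11 of the 12 fits. Of 176 ion channel genes 0 were higher and 3 lower (1.7%, below the share of all genes). Among them were KCND2, given above, and KCNJ5, an inward rectifier, at log2 -0.58 ± 0.13. The call of KCNJ5 was lost without Cornish library 5 or 6. Of 29 genes of iron and haem handling 1 was higher and 1 lower (6.9%). ALAS1, which starts haem synthesis outside red cells, was higher at log2 0.28 ± 0.07 (its call lost in 8 of the 12 fits). UROS, a later step, was at 5.34, 6.99 and 7.27 CPM in Cornish against 8.43, 9.37 and 12.1 CPM in White Plymouth Rock. For UROS the log2 fold change was -0.57 ± 0.12 (adjusted p = 0.0166), and no libraries of the breeds overlapped. None of 33 antioxidant and glutathione genes in the list passed. GSTA2, a glutathione transferase outside it, was at 13.4, 23.9 and 33 CPM in Cornish against 10.4, 12.4 and 15.4 CPM in White Plymouth Rock. GSTA2 rose by 0.93 ± 0.18 on the log2 scale (adjusted p = 0.0108), and the groups overlapped. CYGB, the oxygen-binding cytoglobin of connective tissue cells, was higher at 281, 304 and 329 CPM in Cornish against 201, 233 and 254 CPM in White Plymouth Rock. The groups of CYGB did not overlap, and its log2 fold change was 0.40 ± 0.07 (adjusted p = 0.004).

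In a list of 51 genes of folding and N-glycosylation in the endoplasmic reticulum, drawn up after the values were seen, 9 were higher in Cornish and 2 lower (21.6%), or 4 and 2 without White Plymouth Rock library 5 (11.8%). All genes gave 3.72% and 2.65% in these fits, and nothing is read from the shares of a list chosen this way. STT3A, the catalytic subunit of oligosaccharyltransferase, was at 151, 158 and 165 CPM in Cornish against 115, 124 and 136 CPM in White Plymouth Rock. STT3A had a log2 fold change of 0.36 ± 0.05 (adjusted p = 0.00186), without overlap of the groups. RCN1, a calcium-binding protein of the lumen, was at 440.4, 488 and 531 CPM in Cornish against 348, 385 and 393 CPM in White Plymouth Rock. For RCN1 the log2 fold change was 0.36 ± 0.07 (adjusted p = 0.011), and no libraries of the breeds overlapped. TXNDC12, a thioredoxin-like protein, was at 54.3, 57.9 and 61.1 CPM in Cornish against 43.1, 48.3 and 52.1 CPM in White Plymouth Rock. TXNDC12 rose by 0.28 ± 0.05 on the log2 scale (adjusted p = 0.00859), and the groups did not overlap. MOGS, the first glucosidase that trims N-glycans, was at log2 0.34 ± 0.08. METTL7A, a methyltransferase of the endoplasmic reticulum and lipid droplets outside the list, was at 14.5, 19.4 and 21.2 CPM in Cornish against 4.94, 8.91 and 13.2 CPM in White Plymouth Rock. The groups of METTL7A did not overlap, and its log2 fold change was 1.06 ± 0.22 (adjusted p = 0.0139). PDIA4, ERP29, CKAP4, CRELD2 and FUT8 had log2 fold changes of 0.20 ± 0.05, 0.25 ± 0.06, 0.38 ± 0.09, 0.38 ± 0.11 and 0.22 ± 0.06, and their calls were lost in 9, 8, 7, 11 and 9 of the 12 fits. On the lower side, SSR2, a subunit of the translocon-associated complex, was at 88.9, 92 and 102 CPM in Cornish against 108, 112 and 124 CPM in White Plymouth Rock. SSR2 had a log2 fold change of -0.28 ± 0.06 (adjusted p = 0.0194), without overlap of the groups. DOLK, which makes dolichol phosphate, was at log2 -0.55 ± 0.13, and its call was lost without Cornish library 1. Of 24 genes of the unfolded protein and integrated stress response CRELD2 alone passed, and the median was -0.165.

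The shares of chaperone and protein breakdown genes past the threshold lay on both sides of the 3.72% of all genes. Of 84 chaperones and heat shock proteins 1 was higher (PDIA4) and 4 were lower (5.95%). DNAJC19, of the mitochondrial import motor, was at 11.7, 13.1 and 14.4 CPM in Cornish against 15.5, 17.9 and 19.1 CPM in White Plymouth Rock. For DNAJC19 the log2 fold change was -0.43 ± 0.09 (adjusted p = 0.0183), and no libraries of the breeds overlapped. HSPB11, a small heat shock-like protein that is also part of the intraflagellar transport complex, was at 3.19, 3.7 and 4.35 CPM in Cornish against 4.61, 5.29 and 5.54 CPM in White Plymouth Rock. HSPB11 fell by 0.50 ± 0.11 on the log2 scale (adjusted p = 0.019), and the groups did not overlap. DNAJC16 was at log2 -0.34 ± 0.08, and its call was lost without Cornish library 3, 5 or 6 or White Plymouth Rock library 2 or 3. DNAJB13, a protein of the sperm and ciliary axoneme, was at log2 -0.64 ± 0.17, and its call was lost in 11 of the 12 fits. Of 196 ubiquitin ligases and substrate adaptors 0 were higher and 5 lower, 2.55%, which is below the 3.72% of all genes. They were TRIM66 at log2 -1.64 ± 0.40, FBXL2 at log2 -0.41 ± 0.10, FBXO9 at log2 -0.29 ± 0.08, FBXO34 at log2 -0.31 ± 0.08 and RNF213 at log2 -0.65 ± 0.18. These 5 calls were lost in 7, 6, 9, 11 and 10 of the 12 fits. Of 39 proteasome genes 2 were lower (5.13%). They were the assembly chaperone PSMG4 at log2 -0.45 ± 0.11 and the inhibitor PSMF1 at log2 -0.32 ± 0.08, with calls lost in 7 and 6 fits.

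In a list of 40 lysosomal hydrolases drawn up after the values were seen 1 was higher and 6 lower (17.5%). Without White Plymouth Rock library 5 these were 0 and 3 (7.5%). All genes gave 3.72% and 2.65% in these fits, and nothing is read from the shares of a list chosen this way. CTBS, a chitobiase of glycoprotein breakdown, was at 7.4, 14.9 and 20.0 CPM in Cornish against 19.8, 28.7 and 42.6 CPM in White Plymouth Rock. CTBS had a log2 fold change of -1.08 ± 0.23 (adjusted p = 0.0179), with overlap of the groups. GLB1L, a relative of the beta-galactosidase GLB1, was at 17.4, 18 and 20.0 CPM in Cornish against 24.8, 30.8 and 38.2 CPM in White Plymouth Rock. For GLB1L the log2 fold change was -0.72 ± 0.13 (adjusted p = 0.00702), and no libraries of the breeds overlapped. GLB1 itself was at log2 -0.63 ± 0.15, and its call was lost without Cornish library 5 or White Plymouth Rock library 3. CTSB, the protease cathepsin B, was at 154, 233 and 260.2 CPM in Cornish against 279.6, 293 and 384 CPM in White Plymouth Rock. CTSB fell by 0.48 ± 0.12 on the log2 scale (adjusted p = 0.0376), and the groups did not overlap; its call was lost in 7 of the 12 fits. It was the 1 of 34 autophagy and atrophy genes that differed. IDUA and HYAL1, which degrade glycosaminoglycans, were at log2 -0.31 ± 0.08 and -0.32 ± 0.08, and ARSB, a sulfatase, was the higher one at log2 0.22 ± 0.06; all 3 calls were lost in 10 of the 12 fits. RUBCNL, a regulator of autophagosome maturation, was higher, at 20.4, 29.5 and 49.9 CPM in Cornish against 16.3, 17.2 and 19.1 CPM in White Plymouth Rock. The groups of RUBCNL did not overlap, and its log2 fold change was 0.83 ± 0.17 (adjusted p = 0.0165).

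Matrix and connective tissue genes showed a few strong differences in lists where most genes passed no threshold. Of 49 collagens and collagen processing genes 2 were higher and 1 lower (6.12%, against 3.72% of all genes). The lower one was COL17A1, given below with the skin epithelium genes that were high in White Plymouth Rock libraries 1 and 5. Without both libraries its log2 fold change was -0.44 (adjusted p = 0.666, edgeR). COL20A1, a collagen that associates with fibrils, was abundant, at 1426, 1644 and 1978 CPM in Cornish against 776, 947 and 1238 CPM in White Plymouth Rock. COL20A1 had a log2 fold change of 0.76 ± 0.11 (adjusted p = 0.00202), without overlap of the groups. COL9A2, a chain of type IX collagen known from cartilage, was at 2.61, 3.45 and 3.73 CPM in Cornish against 1.44, 2.03 and 2.75 CPM in White Plymouth Rock. For COL9A2 the log2 fold change was 0.72 ± 0.17 (adjusted p = 0.024), and some libraries of the breeds overlapped. It was the 1 of 23 cartilage and bone markers that passed, and COL9A1 was at log2 0.21 ± 0.38 and ACAN, the cartilage proteoglycan, at log2 0.58 ± 0.41. Of 59 matrix proteases and inhibitors 3 were higher and 1 lower (6.78%), the last being CTSB. MMP27, a matrix metalloproteinase, was at 1.75, 2.04 and 3.64 CPM in Cornish against 0.574, 0.817 and 1.34 CPM in White Plymouth Rock. MMP27 rose by 1.38 ± 0.26 on the log2 scale (adjusted p = 0.00971), and the groups did not overlap. ADAMTS15 and ADAMTS9, proteases that cut proteoglycans, were at log2 0.36 ± 0.09 and 0.36 ± 0.10, and their calls were lost in 8 and 9 of the 12 fits. Of 37 matrix glycoproteins and proteoglycans CRISPLD2 alone differed. Of 24 fibroblast and connective tissue markers 2 were higher (8.33%). FAP, a membrane protease of activated fibroblasts, was at 130.2, 179 and 209 CPM in Cornish against 78.6, 109 and 145 CPM in White Plymouth Rock. The groups of FAP overlapped, and its log2 fold change was 0.68 ± 0.14 (adjusted p = 0.0165). CD248, the endosialin of stromal cells, was at 126, 139 and 161 CPM in Cornish against 96.9, 106 and 118 CPM in White Plymouth Rock. CD248 had a log2 fold change of 0.41 ± 0.08 (adjusted p = 0.00932), without overlap of the groups. The list as a whole had a median of 0.0763 and summed to 58143 to 83555 CPM in Cornish and 57453 to 85471 CPM in White Plymouth Rock libraries. PDGFRB, a receptor of pericytes and fibroblasts, was the 1 of 15 smooth muscle and pericyte markers to differ, at 131, 147 and 159 CPM in Cornish against 103, 107 and 137 CPM in White Plymouth Rock. For PDGFRB the log2 fold change was 0.36 ± 0.09 (adjusted p = 0.0265), and some libraries of the breeds overlapped; its call was lost without Cornish library 1 or 5 or White Plymouth Rock library 2, 3 or 5. Of 21 adipocyte markers PNPLA2, the fat triglyceride lipase, was higher at log2 0.57 ± 0.15 (its call lost in 7 of the 12 fits), and the median was 0.248.

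Blood and vessel genes that passed the threshold were higher in Cornish. Of 16 red blood cell genes 7 were higher and 0 lower (43.8%, against 3.72% of all genes), with a median of 0.511. NFE2, an erythroid and megakaryocyte transcription factor, was at 11.1, 13.2 and 15.1 CPM in Cornish against 8.12, 8.89 and 10.8 CPM in White Plymouth Rock. NFE2 rose by 0.48 ± 0.10 on the log2 scale (adjusted p = 0.0168), and the groups did not overlap. HBA1, an adult alpha globin, was at 369, 404 and 543 CPM in Cornish against 177, 266 and 356 CPM in White Plymouth Rock. The groups of HBA1 did not overlap, and its log2 fold change was 0.74 ± 0.18 (adjusted p = 0.0315). HBBA, an adult beta globin, was at 519, 617 and 787 CPM in Cornish against 219.7, 412 and 537 CPM in White Plymouth Rock. HBBA had a log2 fold change of 0.76 ± 0.19 (adjusted p = 0.0334), with overlap of the groups. The call of HBA1 was lost without Cornish library 1 or 4 or White Plymouth Rock library 2, 3 or 4, and that of HBBA was lost in 6 of the 12 fits. HBAD, HBE1, SLC4A1 and TSPO2 had log2 fold changes of 0.72 ± 0.19, 1.22 ± 0.31, 0.74 ± 0.18 and 0.83 ± 0.21, with calls lost in 8, 7, 6 and 8 fits. The globin genes are similar copies on chromosomes 1 and 14, so counts may be shared between neighbours. The list summed to 2695 to 3243 CPM in Cornish and 1947 to 2858 CPM in White Plymouth Rock libraries. Of its members 6 passed without White Plymouth Rock library 5, 1 to 7 with 1 library left out and 0 in the fit of all 72 libraries.

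Of 35 endothelial markers 4 were higher and 0 lower (11.4%, against 3.72% of all genes), with a median of 0.262. APLN, the peptide apelin of sprouting vessel tips, was at 20.0, 21.2 and 22.7 CPM in Cornish against 9.0, 11.8 and 17.3 CPM in White Plymouth Rock. For APLN the log2 fold change was 0.77 ± 0.19 (adjusted p = 0.0333), and no libraries of the breeds overlapped. CD34, a surface protein of vessels and progenitors, was at 256, 268 and 274 CPM in Cornish against 159, 218 and 240.4 CPM in White Plymouth Rock. CD34 rose by 0.34 ± 0.09 on the log2 scale (adjusted p = 0.049), and the groups did not overlap. ECSCR, a regulator of endothelial sprouting, was at 26.3, 27.3 and 31.5 CPM in Cornish against 20.6, 21.6 and 26.3 CPM in White Plymouth Rock. The groups of ECSCR did not overlap, and its log2 fold change was 0.30 ± 0.07 (adjusted p = 0.0303). The calls of APLN, CD34 and ECSCR were lost in 8, 11 and 7 of the 12 fits. CDH5, the junction protein VE-cadherin, was at log2 0.36 ± 0.09, and its call was lost in 8. Without White Plymouth Rock library 5 none of these 4 passed, and VWF, the von Willebrand factor of vessel walls, did, at log2 0.43 (adjusted p = 0.0431) beside 0.37 (adjusted p = 0.0623) with all libraries. With 1 library left out 0 to 3 markers passed, and 0 in the fit of all 72 libraries. The summed level of the list was 2193 to 2514 CPM in Cornish and 1949 to 2229 CPM in White Plymouth Rock libraries. The red cell and vessel genes past the threshold were thus all higher in Cornish, and whether the amount of blood in the sampled pieces differed was not tested.

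Among 18 liver and plasma protein genes AHSG, the plasma glycoprotein fetuin, was the 1 that differed, at 34, 45 and 82.9 CPM in Cornish against 88.8, 113 and 156 CPM in White Plymouth Rock. AHSG had a log2 fold change of -1.14 ± 0.24 (adjusted p = 0.0165), without overlap of the groups. The list summed to 186.5 to 593 CPM in Cornish and 294 to 1063 CPM in White Plymouth Rock libraries.

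Cilium and DNA repair genes were examined in lists drawn up after the values were seen. Of 110 cilium and axoneme genes 3 were higher and 9 lower (10.9%). Without White Plymouth Rock library 5 these counts were 2 and 5 (6.36%). All genes gave 3.72% and 2.65% in these fits, and nothing is read from the shares of lists chosen this way. NME5, a nucleoside kinase family member of the ciliary radial spoke, was at 3.98, 5.14 and 5.23 CPM in Cornish against 7.22, 7.41 and 7.85 CPM in White Plymouth Rock. For NME5 the log2 fold change was -0.63 ± 0.10 (adjusted p = 0.00364), and no libraries of the breeds overlapped. DYNC2LI1, a chain of the retrograde ciliary dynein, was at 5.86, 7.41 and 8.38 CPM in Cornish against 9.47, 10.8 and 16.7 CPM in White Plymouth Rock. DYNC2LI1 fell by 0.70 ± 0.14 on the log2 scale (adjusted p = 0.0141), and the groups did not overlap. TOGARAM1, a microtubule regulator of cilia, was at log2 -0.26 ± 0.06. TTC30B, a subunit of the intraflagellar transport complex, went the other way, at 17.2, 20.6 and 21.5 CPM in Cornish against 10.1, 12.6 and 16.9 CPM in White Plymouth Rock. The groups of TTC30B did not overlap, and its log2 fold change was 0.62 ± 0.10 (adjusted p = 0.00295). Of 82 DNA repair genes 1 was higher and 4 lower (6.1%), among the last FANCD2, RAD51C and ALKBH3. FANCD2, the central protein of crosslink repair, was at 32.1, 40.2 and 49.7 CPM in Cornish against 57.4, 60.1 and 66 CPM in White Plymouth Rock. FANCD2 had a log2 fold change of -0.56 ± 0.10 (adjusted p = 0.00514), without overlap of the groups. RAD51C, of homologous recombination, was at log2 -0.49 ± 0.11 with its call lost without Cornish library 5 or White Plymouth Rock library 5, and ALKBH3, which removes alkyl groups, at log2 -0.40 ± 0.11 with its call lost in 9 of the 12 fits. DCLRE1A, a nuclease of crosslink repair, was higher at 17.9, 20.4 and 27.4 CPM in Cornish against 13.7, 14.5 and 15.5 CPM in White Plymouth Rock. For DCLRE1A the log2 fold change was 0.57 ± 0.12 (adjusted p = 0.0148), and no libraries of the breeds overlapped.

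Of the 59 lists examined 17 had 0 members past the threshold with edgeR. In each of these, 2 to 8 members had an unadjusted p under 0.05 (edgeR), beside 2323 of the 11717 genes tested. DESeq2, which called 7.41% of all genes, called 0 members in 10 of the 17. In the other 7 DESeq2 called, as higher in Cornish, 2 genes of the tricarboxylic acid cycle, 1 of sterol and fatty acid synthesis and 2 antioxidant genes. As lower it called 1 gene of the neuromuscular junction, 2 interferon response genes and 1 Schwann cell gene. Of insulin-like growth factor and insulin signalling it called 2 higher and 3 lower.

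A few genes of low level differed, and 3 of them were at 0 CPM in at least 1 White Plymouth Rock library. LGSN, the lens protein lengsin, was at 0.655, 2.44 and 5.19 CPM in Cornish against 0, 0.103 and 0.537 CPM in White Plymouth Rock. LGSN rose by 4.21 ± 0.93 on the log2 scale (adjusted p = 0.019), and the groups did not overlap. ANKRD55, an ankyrin repeat protein on the Z chromosome, was at 0.761, 1.02 and 1.52 CPM in Cornish against 0, 0.188 and 0.445 CPM in White Plymouth Rock. The groups of ANKRD55 did not overlap, and its log2 fold change was 2.59 ± 0.60 (adjusted p = 0.0248), and its call was lost without Cornish library 6. DDX4, the vasa helicase of germ cells and also Z-linked, was at 0.241, 4.33 and 7.93 CPM in Cornish against 0, 0.307 and 0.557 CPM in White Plymouth Rock. DDX4 had a log2 fold change of 3.65 ± 0.86 (adjusted p = 0.0264), with overlap of the groups, and its call was lost without White Plymouth Rock library 2. NIM1K, a kinase of the AMPK-related family, was at 2.36, 2.66 and 3.55 CPM in Cornish against 0.699, 1.15 and 1.67 CPM in White Plymouth Rock. For NIM1K the log2 fold change was 1.28 ± 0.23 (adjusted p = 0.00635), and no libraries of the breeds overlapped. RPE65, the isomerase of the visual cycle, went the other way, at 0.679, 0.896 and 1.09 CPM in Cornish against 1.09, 2.45 and 3.74 CPM in White Plymouth Rock. RPE65 fell by 1.47 ± 0.32 on the log2 scale (adjusted p = 0.0177), and the groups did not overlap. LGSN, ANKRD55, DDX4, NIM1K and RPE65 were chosen after their values were seen, and the folds of the first 3 rest on White Plymouth Rock libraries at or near 0.

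Skin epithelium genes were high in White Plymouth Rock libraries 1 and 5. Of 26 such markers 4 were lower in Cornish, KRT14, KRT13, EPCAM and COL17A1 (15.4%, against 3.72% of all genes). The median was -0.877. The calls of KRT13, EPCAM and COL17A1 were lost in 8, 8 and 5 of the 12 fits. KRT13, a keratin of stratified epithelium, was at 0.934, 1.9 and 5.48 CPM in Cornish against 0.898, 3.29 and 211 CPM in White Plymouth Rock. White Plymouth Rock library 1 held 89.2 CPM of it and library 5 held 211 CPM. EPCAM, the epithelial adhesion molecule, reached 10.9 and 43.7 CPM there and at most 0.631 CPM in the other 10 libraries. COL17A1, a collagen of hemidesmosomes, reached 15.5 and 35.0 CPM there and at most 1.32 CPM elsewhere. The junction genes DSP, at 26.6 and 78.4 CPM, and CDH1, at 7.56 and 28.7 CPM, had the same pattern in those libraries, although neither passed the threshold. By DESeq2 the junction genes DSG2 and PKP1 were at log2 -3.23 and -0.54. Of the 26 markers 20 had estimates below 0 and 6 above, with KRT75 the highest at log2 2.26. KRT14, the keratin of basal cells, was highest in White Plymouth Rock libraries 1 and 5, at 11.3 and 22 CPM. Over all libraries it was at 2.22, 2.44 and 4.97 CPM in Cornish against 3.57, 5.76 and 22 CPM in White Plymouth Rock. The groups of KRT14 overlapped, and its log2 fold change was -1.58 ± 0.35 (adjusted p = 0.0191). The estimate was -1.08 (adjusted p = 0.03) without library 5 and -0.77 (adjusted p = 0.063) without both. Without library 5 the list had 1 member lower and a median of -0.269, and without both it had 1 member higher, DSP, and a median of 0.339. TGM4, WIF1 and CYP2W1, which are not on the list, had log2 fold changes of -5.09 ± 1.32, -3.57 ± 0.87 and -3.37 ± 0.83. Without library 5 these were -3.08, -1.72 and -1.67, and none passed the threshold. Their calls were lost in 7, 5 and 7 of the 12 fits.

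**Figure D3:**
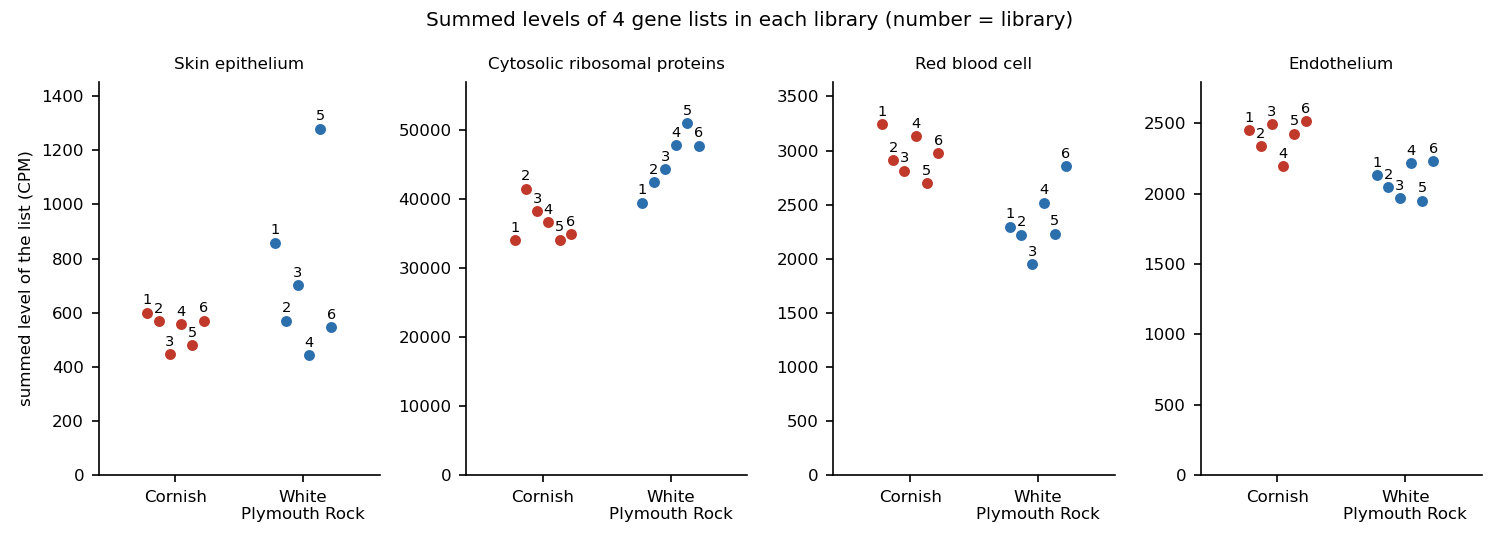
Summed level of the members of 4 gene lists in each library (CPM on the vertical axis; Cornish libraries left, White Plymouth Rock libraries right; the number is the library). White Plymouth Rock libraries 5 and 1 are highest for skin epithelium, and library 5 is also highest for cytosolic ribosomal proteins. For red blood cell and endothelial genes the Cornish libraries lie higher, with overlap of the ranges.

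Most of the other differences kept their size without White Plymouth Rock library 5. All 436 genes kept their sign, the median shift of the log2 fold change was 0.0256, and 7 genes moved by over 0.5: TGM4, EPCAM, WIF1, CYP2W1, KRT13, COL17A1 and SPEF2. The number past the threshold was 311 (2.65%; 1.21% higher and 1.44% lower), of which 270 were among the 436 (117 higher and 153 lower) and 41 were not. Without White Plymouth Rock libraries 1 and 5 it was 327 (2.78%; 1.28% higher and 1.51% lower), of which 244 were among the 436, and 435 of the 436 kept their sign. Of the genes with large differences, LRCH2 was at log2 -2.38, CBLN1 at -4.15, LRRN1 at 1.46 and BF2 at 1.21 without library 5, and at -2.35, -4.30, 1.55 and 1.08 without both.

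**Figure D4:**
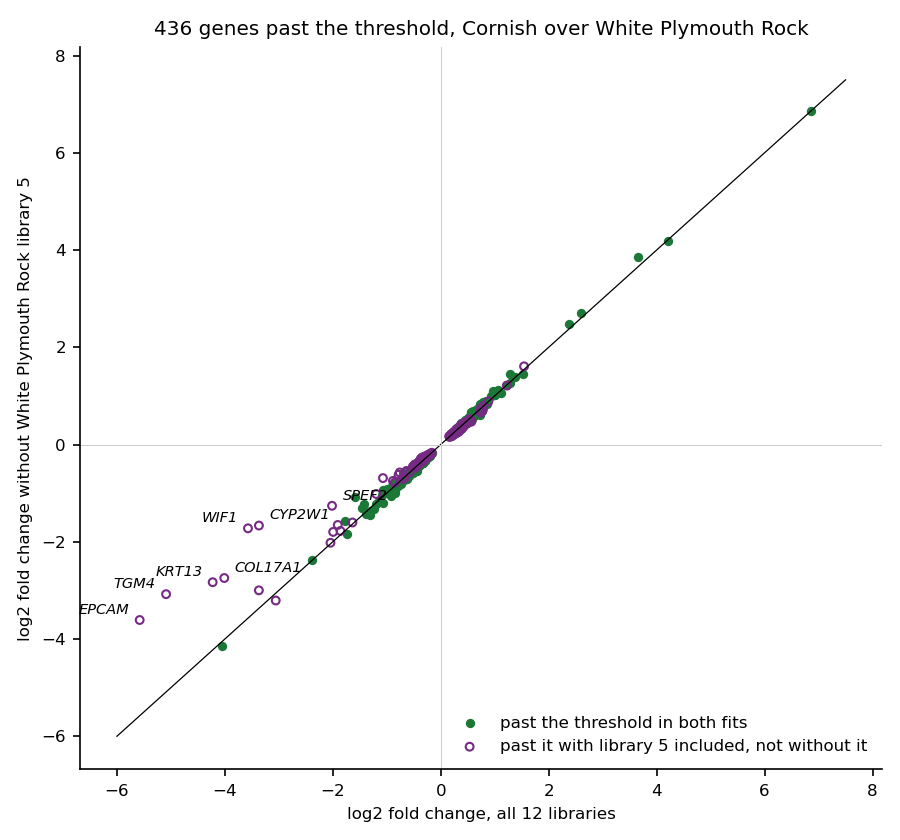
Log2 fold change of the 436 genes, Cornish over White Plymouth Rock, with all 12 libraries (horizontal axis) and without White Plymouth Rock library 5 (vertical axis). The line marks equal values, filled points are past the threshold in both fits and open points in the first alone. Most points lie on the line, and the 7 named genes lie above it at the lower left; the point at the upper right is CD1C, whose fitted value is no bound.

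The breed differences were also set beside those of later stages, which are other libraries. Of the genes past the threshold at embryonic day 17, 316 of 433 (73.0%) had the same sign at day 1, 268 of 429 (62.5%) at day 21 and 280 of 426 (65.7%) at day 42. The shares of all genes tested were 55.1%, 56.3% and 56.4%. At all 3 later stages the sign was the same for 175 of 424 (41.3%), against 23.1% of all genes. Of the genes past the threshold at embryonic day 17, 0 passed it with the same sign at day 1, 29 at day 21 and 0 at day 42. Over all genes, 0 of 11502, 236 of 11378 and 4 of 11383 passed at these stages with their sign of embryonic day 17. Genes that passed with the opposite sign were not counted. PRLR had log2 fold changes of -1.23 ± 0.26 at day 1, -1.16 ± 0.26 at day 21 and -1.06 ± 0.32 at day 42. CETP had values of -1.27 ± 0.36, -1.43 ± 0.25 and -1.40 ± 0.35 at these stages, NLRC5 of -0.97 ± 0.29, -0.64 ± 0.11 and -0.56 ± 0.16, and CNTN4 of 0.97 ± 0.29, 1.96 ± 0.53 and 0.86 ± 0.55. The LRCH2 and CBLN1 differences were smaller or of the other sign later. LRCH2 had log2 fold changes of -0.45 ± 0.22, 0.20 ± 0.10 and 0.21 ± 0.11 and CBLN1 of 0.32 ± 0.60, 0.40 ± 0.51 and 0.94 ± 0.62.

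Tested directly, the breed difference of embryonic day 17 minus the mean breed difference of days 1, 21 and 42 passed the threshold for 6 of 11932 genes (0.0503%; edgeR, all 72 libraries). On the log2 scale they were LRCH2 (-2.36 ± 0.20, adjusted p = 1.84e-13), CBLN1 (-4.60 ± 0.73, adjusted p = 0.000217), EPCAM, RPS3A (-0.90 ± 0.19, adjusted p = 0.0306), NIM1K (1.86 ± 0.39, adjusted p = 0.0306) and CD1C. Without White Plymouth Rock library 5 of embryonic day 17 the count was 2, both among the 6 and both with negative values. NIM1K and CD1C therefore did not pass in that fit, and only 2 of LRCH2, CBLN1, EPCAM and RPS3A did. DESeq2 called 50 genes, 47 of them lower and 1 of them among the 6. For the other genes named here a difference between stages was not shown.

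**Figure D5:**
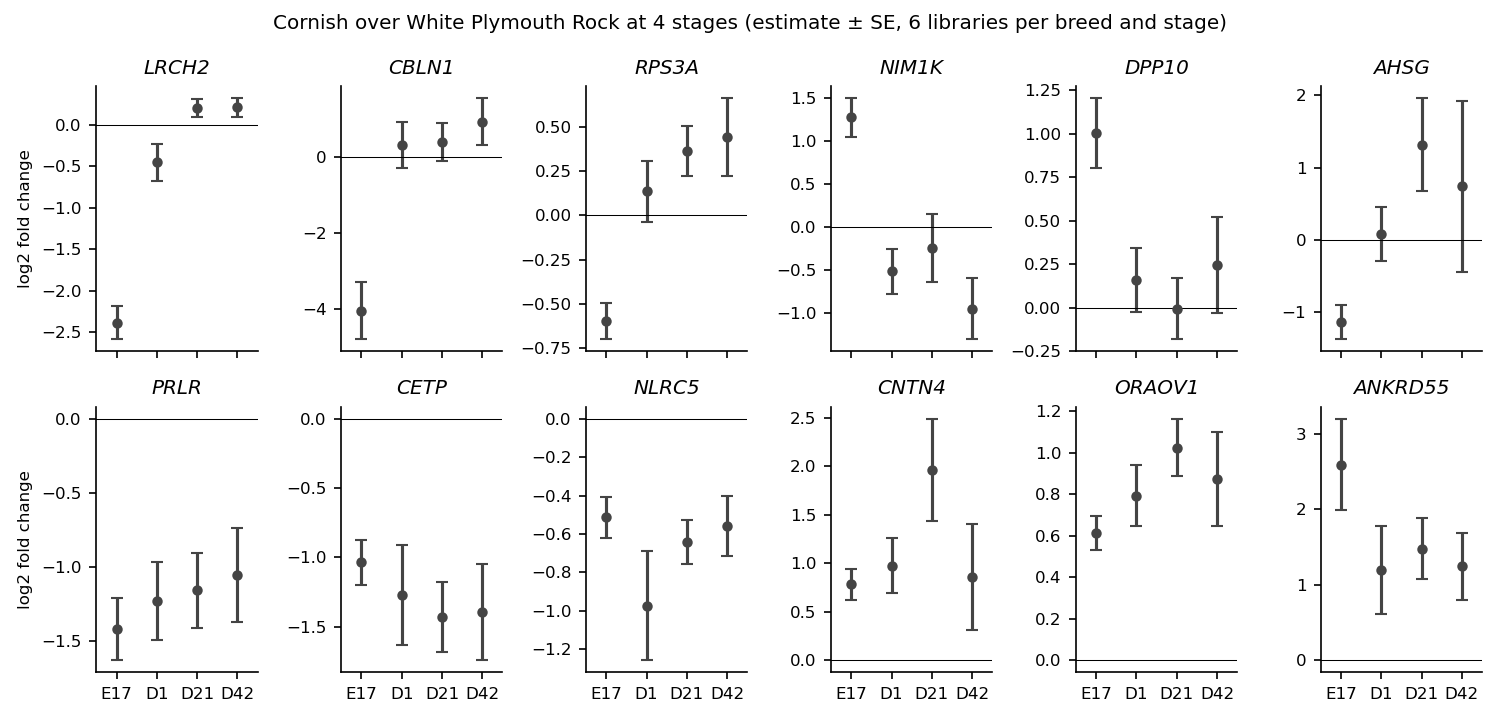
Log2 fold change, Cornish over White Plymouth Rock, at embryonic day 17 (E17) and at days 1, 21 and 42 after hatch (D1, D21, D42), for 12 genes. Points are estimates and bars the SE, each stage was fitted with its own 18 libraries, and the vertical axes differ. The upper row has LRCH2, CBLN1, RPS3A and NIM1K, which passed the contrast of E17 against the later stages with all 72 libraries. It also has DPP10 and AHSG, which did not. Without White Plymouth Rock library 5 of E17 only 2 genes passed that contrast, and NIM1K was not 1 of them. The lower row has genes with the same sign at all 4 stages.

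The authors' deposited table for this age lists 2517 genes for the Cornish and White Plymouth Rock pair, up to a p-value of 0.0499. Its fold changes run as White Plymouth Rock over Cornish, since for all 2500 of its genes tested here the sign was opposite to that of the Cornish over White Plymouth Rock estimate. Of the 436 genes past the threshold here, 433 are in that table. It comes from the same libraries, so this overlap is no independent check. Its p-value is not labelled as adjusted, whereas the 436 genes were held to an adjusted p.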

How the data were processed

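Breast muscle RNA was sequenced in 72 libraries, per the labels' protocols after extraction from frozen tissue and Illumina TruSeq library preparation. Per the submitters' processing notes, cutadapt 4.4, HISAT2 2.2.1 and StringTie were used with the chicken build GRCg7b; the strand setting of the counting is not given in the sources used here. As estimated counts per gene the authors deposited a table of 12046 genes, written as whole numbers, of which 31.1% of the values from 1 to 20 are multiples of 4 where an even spread gives 25%. They also deposited a table of log2 fold changes and p-values for the pair of breeds.

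The 18 libraries of embryonic day 17 were fitted in 3 groups with edgeR 4.0.16 (R 4.3.3; TMM scaling, default filter on low counts, quasi-likelihood test, two-sided, Benjamini-Hochberg adjustment over 11717 genes, threshold 0.05). Standard errors came from the fold change and its F statistic, and CPM are TMM-scaled. The stage contrast used all 72 libraries. The simulated data held 11717 genes, with 100 genes changed at each size. The fit called 56% at a log2 fold change of 0.5 and 85% at 1, with 13 false calls among the unchanged genes. Total counts of 55174131 to 60236727 per library make counting error small beside the spread between libraries for all but the lowest genes. No 2 libraries were identical.

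Alternatives were DESeq2 1.42.0, median-of-ratios scaling, other filters, other sets of libraries, a block for the replicate number, each library left out and counts over 4. Genes were named by rule: of genes with a mean of at least 5 CPM, the 12 higher and 12 lower with the largest difference and no overlap, up to 4 called members of each list by p, and in any case IGF1, IGF2, MSTN, MYOD1, MYOG and PAX7. Members, lists and tests were chosen with earlier results of these data known, and 5 lists and the genes so marked after the values were seen. The TTN, TNNT3, TOP2A, TAP1, TAP2, BLB2, B2M, MHCY15, COL9A1, ACAN, DSP and CDH1 values, and genes outside the lists, were likewise picked after the values were seen. Positions are from RefSeq (GRCg7b), matched by symbol for 11373 of the 11717 genes. Some genes past the threshold are counted but not reported here by name.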

Additional observations from a re-analysis of the deposited data

Results flagged for a closer look

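In 14 of 214 groups of 6 libraries 1 library lay far from the other 5 by Dixon's criterion, and chance gives about 1 in 20. Among genes higher in Cornish, BF2 was highest in Cornish library 3 at 63.3 CPM, DPP10 was lowest in Cornish library 6 at 44.6 CPM and in White Plymouth Rock library 2 at 24.4 CPM, and MMP27 was highest in Cornish library 4 at 3.64 CPM. ADAMTS15 was lowest in Cornish library 1 at 186 CPM, SLC25A5 lowest in Cornish library 4 at 54.0 CPM, ECSCR highest in Cornish library 6 at 31.5 CPM and ALAS1 lowest in White Plymouth Rock library 5 at 49.5 CPM. Among genes lower in Cornish, EYA1 was highest in Cornish library 3 at 275 CPM, COL17A1 highest in Cornish library 2 at 1.32 CPM and CTSB lowest in Cornish library 1 at 154 CPM. HSPB11 was lowest in White Plymouth Rock library 6 at 4.61 CPM, and library 5 of that breed was highest for CRISPLD2 at 15.4 CPM and for EPCAM at 43.7 CPM.

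Named genes whose breed difference at embryonic day 17 differed from the mean of days 1, 21 and 42, by the contrast of all 72 libraries (edgeR), were CBLN1 at -4.60, LRCH2 at -2.36, RPS3A at -0.90, CD1C at 5.24 and EPCAM at -9.24 on the log2 scale. The CD1C and EPCAM values depend on libraries at or near 0 counts and give no size of the difference. Without White Plymouth Rock library 5 of embryonic day 17 only 2 genes passed this contrast, and CD1C was not 1 of them. EPCAM, together with the other skin epithelium markers, was high in White Plymouth Rock libraries 1 and 5 of embryonic day 17.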

How the results depend on the processing

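Of the 436 genes past the threshold, DESeq2 shared 433 and called 868 in all, while the fit of all 72 libraries called 46. Leaving out 1 library at a time gave 249 to 418 genes, with 252, 258, 252 and 249 without Cornish library 1, 4, 5 or 6. Median-of-ratios scaling, no filter, a minimum of 1 CPM, the 12 purebred libraries alone and counts divided by 4 gave 432, 415, 459, 428 and 455. For the stage contrast, which called 6 genes, DESeq2 called 50, the fit without White Plymouth Rock library 5 of embryonic day 17 called 2 and that without libraries 1 and 5 called 3. The cause of these changes was not tested. The fits that leave out libraries also hold fewer samples.

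The replicate numbers are shared between the breeds, and the labels do not say that they pair the libraries. Correlations of same-numbered deviations were 0.244, -0.0809, -0.125, -0.0942, -0.0699 and 0.175, and number 1 alone matched its own best. Values of mixed sign cannot decide whether the numbers pair the libraries. With the replicate block 313 genes were called in the 18 libraries and 122 in the 12 purebred libraries, and 21 for the stage contrast with a block within each stage. Of the 101 named genes past the threshold, 43 kept their call with the block in the 12 purebred libraries and 57 lost it.

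Of 101 named genes past the threshold, DESeq2 kept the call of 100, with no value for the other, median-of-ratios scaling of 101 and the fit of all 72 libraries of 18. The sign turned for KRT13 without White Plymouth Rock libraries 1 and 5, at 0.36, and for IGF1, which passed no threshold and ranged from -0.05151 to 0.1011 with 1 library left out, without Cornish library 3 or 5 and without White Plymouth Rock library 2. Depth was similar in all libraries, and genes under about 1 CPM, such as CD1C, rest on few counts.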

Other observations

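MYH7B, MYL3 and MYL2, genes of slow and cardiac fibres chosen after their values were seen, varied widely among libraries of both breeds, whereas the list of 21 slow, cardiac and embryonic genes summed to 19473 to 23911 CPM in Cornish and 20937 to 26804 CPM in White Plymouth Rock. MYH7B, a slow-type myosin heavy chain, was at 721 CPM in Cornish library 1 and 7.49 CPM in Cornish library 3, and at 216 CPM in White Plymouth Rock library 1 and 6.98 CPM in White Plymouth Rock library 4. MYL3, a slow and ventricular myosin light chain, was at 512 CPM and 2.95 CPM in the same Cornish libraries and at 189 CPM and 0.517 CPM in the same White Plymouth Rock libraries. MYL2 had 39.5 and 1.08 CPM, against 13.5 and 0.249 CPM. The breed difference was 1.33 for MYH7B, 1.23 for MYL3 and 1.19 for MYL2 on the log2 scale, with adjusted p-values of 0.524, 0.642 and 0.461 (edgeR). Library 1 of each breed was thus the highest and the same libraries were low for all 3 genes.

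The crossbred libraries of the same age lay between the purebreds by their median for every gene that the naming rule took for the size of its difference. These genes were picked because the purebred groups lie apart, which favours a median between them, so nothing is read from it. The share among all genes was not computed. LRCH2 had a crossbred median of 87.5 CPM, with 36.7 to 118 CPM over 6 libraries, beside purebred medians of 29.9 CPM in Cornish and 161 CPM in White Plymouth Rock. CBLN1 ranged in crossbreds from 2.11 CPM, within the Cornish range, to 87.9 CPM, within the White Plymouth Rock range. BF2 had a crossbred median of 34.0 CPM beside 36.9 CPM in Cornish and 17.5 CPM in White Plymouth Rock, and LRRN1 one of 26.8 CPM beside 54.9 CPM in Cornish and 19.9 CPM in White Plymouth Rock. No test was run on these crossbred values.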
